A study of Mus musculus with 4 samples.

Results

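The 8 genes Mx1, Mx2, Rsad2, Cmpk2, Ifi44, Ifi27l2a, Xaf1 and Rtp4 encode antiviral effectors, proteins that interferon induces and that act on a virus or on the infected cell. They were chosen by name, and their raw transcript counts were summed over the cells of each cell class and library in 4 single-cell RNA-seq libraries. Of 32285 genes with a row in the count matrices, 6 were members. Mx1 and Mx2 were not analysed here, so every count below is over the other 6 genes. The libraries came from C57BL/6J mice 6 to 8 weeks old that carried MA9 leukaemia, a model of acute myeloid leukaemia in which blood progenitors are transformed by the MLL-AF9 fusion. The hosts were wild-type mice, and only the transplanted leukaemia cells carried the doxycycline-inducible construct, which was a control in the Ctrl groups and a short hairpin against Prmt9 in the shPrmt9 groups. All groups received doxycycline in the drinking water for 7 days. Bone marrow (BM) gave the groups BM-Ctrl and BM-shPrmt9, and the spleen gave Spleen-Ctrl and Spleen-shPrmt9, each of them 1 library. Per the study's methods, the cells of both tissues were from a mouse chosen as representative of its treatment group.

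Type I interferons bind a receptor on nearly every cell type, and the kinases Jak1 and Tyk2 then activate transcription factors. These bind interferon-stimulated response elements (ISRE) in promoters. The genes switched on in this way differ in what they do. Mx proteins are dynamin-like GTPases that trap viral capsids, although common laboratory strains, C57BL/6 among them, carry defective Mx genes. Viperin, encoded by Rsad2, turns CTP into a chain terminator of viral polymerases, and Cmpk2, its neighbour in the genome, is a mitochondrial nucleotide kinase. Ifi44 is a cytoplasmic protein of less defined action, Ifi27l2a a small mitochondrial membrane protein, Xaf1 an antagonist of the apoptosis inhibitor XIAP, and Rtp4 a receptor-trafficking protein that restricts some RNA viruses.

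After filtering, the control libraries had 8901 (BM) and 8306 (spleen) cells and the shPrmt9 libraries 10175 and 7545, with medians of 6305 to 10383 unique molecular identifiers (UMIs, each standing for 1 counted transcript) per cell. Pairs of libraries shared 15 to 35 cell barcodes. Each cell was given a class by a fixed set of marker genes, and a name such as MA9-like or B-like means only likeness by those markers. All markers of a class were detected in it, beside markers of other classes. MA9-like cells held 525 UMIs per 1000000 of their own markers and 9614 of neutrophil progenitor markers. Conventional DC-like cells held 424 of their own and 1448 of neutrophil progenitor markers, and plasma cell-like cells 19945 of their own and 37146 of B markers. In the other classes the own list was the highest. Levels are UMIs of a gene per 1000000 UMIs of the cells of a class (CPM), and since only the end of a transcript is counted they were not divided by gene length and are compared within a gene only. With 1 library a group there were no replicates and no test, so each ratio describes a pair of libraries, and the 95% intervals given in parentheses (exact binomial for ratios and shares, exact Poisson for levels) cover counting error only. A gene was called at a ratio of at least 2 either way, with at least 10 UMIs over both libraries. Prmt9 itself was counted in MA9-like cells at 11.0 CPM in BM-Ctrl, 6.37 in BM-shPrmt9, 15.3 in Spleen-Ctrl and 6.06 in Spleen-shPrmt9, giving ratios of 0.578 (0.525–0.637) and 0.396 (0.235–0.673). Y-linked transcripts in the other cells numbered 0 and 1 UMIs in the BM libraries and 15525 and 14440 in the spleen libraries. These counts go against a single animal having given both tissues, so tissue and animal cannot be told apart. Depth differed too: neutrophil progenitor-like cells had a median of 29340.5 UMIs in BM-Ctrl and 2492 in BM-shPrmt9, and its part in their ratios was not tested. Different clusters held some classes in the control and shPrmt9 marrow. Of MA9-like clusters, numbers 14 and 16 counted 448 and 1122 control cells against 0 and 3 from the shPrmt9 marrow, and numbers 21 and 31 counted 1 and 0 against 835 and 464. Of mature neutrophil-like clusters, number 2 counted 2790 against 129 and number 3 counted 162 against 2757.

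In the annotation of the mouse build GRCm38 (mm10), Rsad2 (ENSMUSG00000020641) lies at chr12:26442746-26456452 on the minus strand and Cmpk2 (ENSMUSG00000020638) at chr12:26469204-26479837 on the plus strand. The pair is divergent, with 12751 bases and 0 annotated genes between them. Ifi27l2a (ENSMUSG00000079017) is on the same chromosome at chr12:103442167-103443680, minus strand, Ifi44 (ENSMUSG00000028037) at chr3:151730922-151749960, minus strand, Xaf1 (ENSMUSG00000040483) at chr11:72301629-72313733, plus strand, and Rtp4 (ENSMUSG00000033355) at chr16:23520291-23614222, plus strand. Mx1 and Mx2 lie on chromosome 16, and RefSeq lists both as transcribed pseudogenes in this assembly. Of the 31-base words in the last 463 bases of the Ifi27l2a transcript, 6.00% also occur in its neighbour Ifi27l2b, and for the last 500 bases of the other 5 genes the share was 0%. Rtp4 overlaps the gene Gm45338 on its own strand and Masp1 on the other, so counts in shared exons of Rtp4 and Gm45338 are uncertain.

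RefSeq's promoter table for GRCm38.p6, from 250 bases before to 50 after a start site, held 4 of the genes, shown here as the sequence beside which these genes, higher in most classes compared, are transcribed. They were searched on both strands for the core of the ISRE, GAAA repeated after any 2 bases, and, after the data had been seen, for GAAANGAAA, with 1 base between the repeats. Capitals mark a match to either motif. The windows are chr12:26456403-26456702 (minus strand), chr12:26468965-26469264 (plus), chr3:151749861-151750160 (minus) and chr11:72301379-72301678 (plus), each written from 5′ to 3′ of the gene.
Rsad2: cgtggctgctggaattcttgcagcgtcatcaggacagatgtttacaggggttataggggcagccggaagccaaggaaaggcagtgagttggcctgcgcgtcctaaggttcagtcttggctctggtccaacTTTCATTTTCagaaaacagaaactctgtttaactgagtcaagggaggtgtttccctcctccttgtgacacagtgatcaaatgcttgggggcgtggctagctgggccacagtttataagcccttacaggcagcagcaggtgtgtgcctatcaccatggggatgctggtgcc
Cmpk2: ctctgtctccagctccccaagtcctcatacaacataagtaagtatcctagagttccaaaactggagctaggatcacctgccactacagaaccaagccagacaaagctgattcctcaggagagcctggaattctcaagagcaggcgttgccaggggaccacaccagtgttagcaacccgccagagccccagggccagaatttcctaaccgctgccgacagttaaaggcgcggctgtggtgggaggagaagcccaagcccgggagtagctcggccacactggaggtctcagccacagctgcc
Ifi44: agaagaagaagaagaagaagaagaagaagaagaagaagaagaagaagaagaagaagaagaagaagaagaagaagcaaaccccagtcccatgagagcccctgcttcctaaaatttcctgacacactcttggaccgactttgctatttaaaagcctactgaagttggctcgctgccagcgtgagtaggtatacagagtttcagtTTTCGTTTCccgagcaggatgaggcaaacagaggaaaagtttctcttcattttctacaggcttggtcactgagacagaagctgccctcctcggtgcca
Xaf1: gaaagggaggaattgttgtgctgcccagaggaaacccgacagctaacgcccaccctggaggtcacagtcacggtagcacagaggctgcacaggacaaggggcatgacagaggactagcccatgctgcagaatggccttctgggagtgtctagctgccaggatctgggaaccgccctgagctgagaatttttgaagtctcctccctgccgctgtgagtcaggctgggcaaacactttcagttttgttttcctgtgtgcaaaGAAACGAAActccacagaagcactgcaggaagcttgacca
The Rsad2 window held the ISRE core as its reverse complement, TTTCATTTTC, with its first base at position -120 from the start, a motif found in 3.44% of the 32851 promoters of that length. Ifi44 held TTTCGTTTC at -48 and Xaf1 GAAACGAAA at 11 bases into the transcript, and 3.17% of all promoters held that shorter form. The matches did not overlap each other, and neither form was in the Cmpk2 window, which says only that these letters are absent from it.

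The main question was where in the leukaemic animals these genes were higher with the shPrmt9 leukaemia. In bone marrow 13 classes had at least 20 cells in each library, and 70 of 74 gene and class pairs with enough UMIs were at least 2-fold higher in BM-shPrmt9. In spleen 8 classes could be compared, and 34 of 45 pairs were at least 2-fold higher in Spleen-shPrmt9. In both tissues 0 pairs were at least 2-fold lower. In the plot of the genes against all genes tested, 64 of the 74 pairs in BM and 33 of the 45 in spleen stood above the 95th percentile of their comparison.

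**Figure D1:**
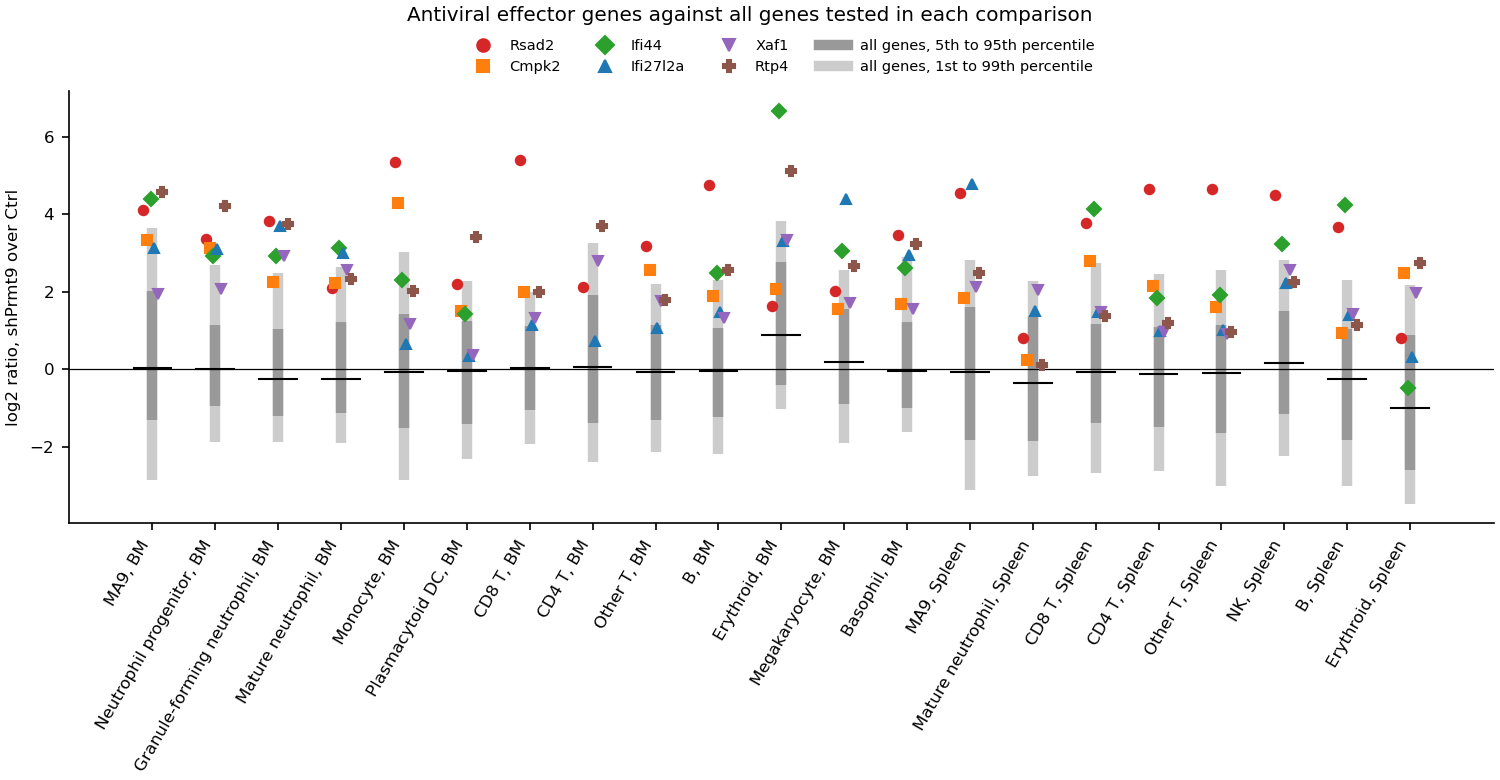
Log2 ratio of shPrmt9 to Ctrl (y axis) in each cell class and tissue (x axis). Dark and light grey bars span the 5th to 95th and the 1st to 99th percentile of all genes tested, the black line is their median, and coloured symbols are the 6 antiviral effector genes, with a lower bound drawn where the control had 0 UMIs. The grey bars of erythroid-like cells are shifted up in bone marrow and down in spleen, with medians of 0.88 and -1.01.

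In the sentences that follow, the percentages after a class are the shares of all genes tested there that were at least 2-fold higher and at least 2-fold lower. In bone marrow all 6 genes were called higher in MA9-like cells (14.3% and 8.11%), neutrophil progenitor-like cells (6.94% and 4.30%), granule-forming neutrophil-like cells (5.26% and 8.22%) and mature neutrophil-like cells (6.67% and 6.28%). The same held for B-like (5.53% and 7.78%), erythroid-like (45.0% and 1.04%), megakaryocyte-like (11.6% and 4.04%) and basophil-like cells (7.29% and 4.75%). In BM CD8 T-like cells 5 of 5 tested genes were called higher (6.21% and 5.91%), and in other T-like cells 5 of 5 (6.81% and 8.87%). Fewer were called in BM CD4 T-like cells, 3 of 4 (15.3% and 10.8%), monocyte-like cells, 5 of 6 (8.50% and 9.96%), and plasmacytoid DC-like cells, 4 of 6 (7.79% and 10.4%). In spleen the counts were 5 of 5 in MA9-like cells (12.2% and 16.5%), 6 of 6 in CD8 T-like cells (5.86% and 9.05%), 5 of 5 in NK-like cells (12.1% and 6.54%) and 5 of 6 in B-like cells (5.32% and 17.2%). Splenic CD4 T-like cells had 4 of 6 (5.82% and 10.6%) and other T-like cells 4 of 6 (6.05% and 12.3%). The splenic counts were smallest in erythroid-like cells, 3 of 6 (4.25% and 50.1%), and mature neutrophil-like cells, 2 of 5 (8.63% and 20.3%).

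In erythroid-like cells the levels of most genes were shifted, up in bone marrow and down in spleen. The median log2 ratio of the 6 effectors was 3.33 in bone marrow, where that of all genes was 0.88, and 1.39 in spleen, where that of all genes was -1.01. Haemoglobin transcripts made up 69.5% of the UMIs of these cells in BM-Ctrl, 58.6% in BM-shPrmt9, 81.1% in Spleen-Ctrl and 86.2% in Spleen-shPrmt9. Scaled to UMIs other than haemoglobin, 6 of 6 effectors in bone marrow and 4 of 6 in spleen were called higher. With TMM factors, which centre each pair of pools on the bulk of its genes, 5 of 6 were called in each tissue. With so many of all genes called higher in bone marrow in the main scaling, the count of 6 in that scaling is read against that background only.

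Among classes with at least 20 cells, Rsad2, the viperin gene, was highest in erythroid-like cells in BM-Ctrl and BM-shPrmt9, as the plot of levels shows. In Spleen-shPrmt9 it was highest in monocyte-like cells. In Spleen-Ctrl erythroid-like and mature neutrophil-like cells were not ordered, since the interval of the latter, 506 to 697 CPM, includes the level of the former. Erythroid-like cells held 403 CPM in BM-Ctrl, 1244 in BM-shPrmt9, 634 in Spleen-Ctrl and 1109 in Spleen-shPrmt9. Mature neutrophil-like cells held 100.3, 433, 596 and 1049 CPM in the same order. Both classes were already high in the control spleen. The ratio in erythroid-like cells was 3.09 (2.92–3.26) in BM and 1.75 (1.65–1.86) in spleen. In mature neutrophil-like cells it was 4.32 (4.08–4.57) and 1.76 (1.49–2.09). These values depend on the scaling. With TMM factors the erythroid-like ratio was 1.79 in BM, which ended that call, and 3.42 in spleen, past the 2-fold line, and that of splenic mature neutrophil-like cells was 2.28. On UMIs other than haemoglobin the erythroid-like ratios were close to each other, 2.28 in BM and 2.39 in spleen. With both of these scalings the splenic ratio was thus the higher, though by little on UMIs other than haemoglobin. The spread of Rsad2 between cells was wide: in erythroid-like cells of BM-Ctrl the 10% of cells with most of it held 55.1% of its UMIs, and in BM-shPrmt9 45.4%.

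**Figure D2:**
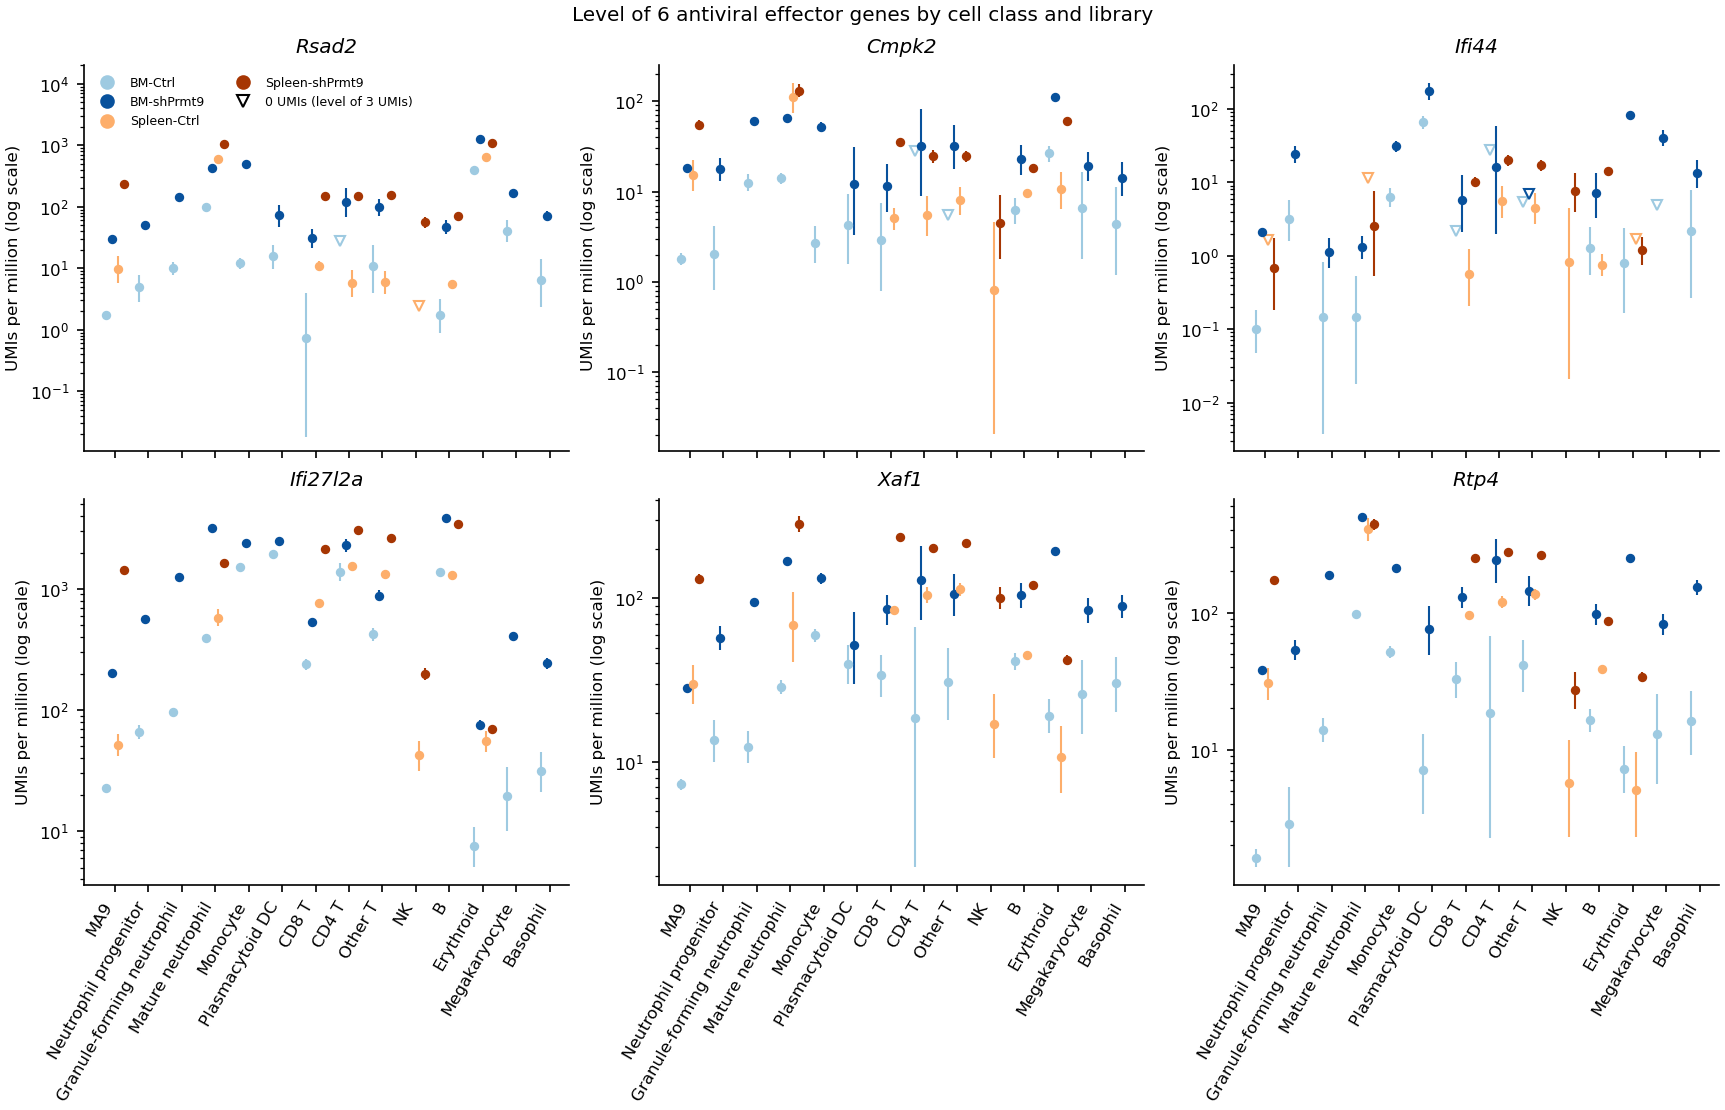
Level of each gene in CPM (y axis, log scale) by cell class (x axis) in the 4 libraries, with exact Poisson 95% intervals. Open triangles mark a library with 0 UMIs, drawn at the level of 3 UMIs. The dark shPrmt9 points lie above the pale Ctrl points of the same tissue in most classes, with overlapping intervals in splenic mature neutrophil-like cells for Cmpk2 and Rtp4.

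The larger ratios of Rsad2 were in classes with little of it in the control. In monocyte-like cells of bone marrow the level was 12.0 CPM in BM-Ctrl and 495 in BM-shPrmt9, a ratio of 41.2 (33.4–51.4) that only 9 of 11633 genes tested exceeded. In MA9-like cells it was 1.74 CPM in BM-Ctrl and 30.1 in BM-shPrmt9, or 17.3-fold higher (14.8–20.3), and 9.84 and 231 CPM in spleen, or 23.4-fold higher (14.8–39.6). B-like cells stood 27.2-fold (14.2–57.4) and 12.8-fold (11.3–14.6) higher in BM and spleen. Of the T-like classes in spleen, CD8 T-like cells went from 10.8 CPM in Ctrl to 148 in shPrmt9, a ratio of 13.7 (11.4–16.7), and CD4 T-like and other T-like cells both stood at 25.4 (16.0–43.1 and 17.0–39.8). NK-like cells of Spleen-Ctrl had 0 UMIs against 87 in Spleen-shPrmt9, at least 22.7-fold higher against a floor of 3 UMIs per library. The 15 UMIs in BM CD4 T-like cells of BM-shPrmt9, against 0 in BM-Ctrl, included 11 from a single cell, and the 32 UMIs of BM CD8 T-like cells, against 1, gave a ratio of 42.5 with an interval of 7.11 to 1732.

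Free RNA from burst cells adds counts of abundant transcripts to all droplets. An upper estimate of it was the level at which transcripts of another lineage (globins, abundant neutrophil genes or immunoglobulins) appeared in a class, as a share of their level in the whole library. It was the highest over the lists used for a class, and it was 2.58 to 4.79% in MA9-like cells, where the neutrophil list was not used. Free RNA at that share would give 27.5% of the Rsad2 counted in MA9-like cells of BM-shPrmt9, 49.7% in those of BM-Ctrl and 6.23% in those of Spleen-shPrmt9. It would give 44.6% of Rsad2 in CD8 T-like cells and 41.5% in plasmacytoid DC-like cells of BM-shPrmt9, and 0.994% in erythroid-like cells there. Taking the estimate off the shPrmt9 libraries alone left 64 of the 74 pairs in BM and 32 of the 45 in spleen at least 2-fold higher. The ratio of Rsad2 in MA9-like cells was then 12.5 in BM and 21.96 in spleen. The share of all genes called with free RNA taken off was not counted.

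Cmpk2, the mitochondrial kinase gene beside Rsad2, was likewise highest in erythroid-like cells in both bone marrow libraries. Mature neutrophil-like and granule-forming neutrophil-like cells came next, with overlapping intervals. Erythroid-like cells held 26.4 CPM in BM-Ctrl and 112 in BM-shPrmt9, and mature neutrophil-like cells 14.0 and 65.7, with ratios of 4.24 (3.44–5.29) and 4.69 (4.03–5.47). In BM erythroid-like cells 1164 of the genes tested exceeded that ratio, against 224 in mature neutrophil-like cells. The erythroid-like ratio was 2.46 with TMM factors and 3.13 on UMIs other than haemoglobin. In spleen the order differed in the control, where mature neutrophil-like cells held 111 CPM and erythroid-like cells 10.7. In Spleen-shPrmt9 monocyte-like cells had most of it, 208 CPM, ahead of mature neutrophil-like cells at 131 and erythroid-like cells at 60.2. Splenic mature neutrophil-like cells of shPrmt9 were within counting error of the control, at a ratio of 1.18 (0.788–1.82). MA9-like cells went from 1.79 CPM in BM-Ctrl to 18.0 in BM-shPrmt9, 10.1-fold higher (8.65–11.8), and from 15.3 to 55.2 in spleen, 3.61-fold higher (2.45–5.51), and these intervals did not overlap between tissues. BM monocyte-like cells had the highest ratio of this gene, 19.5 (12.3–32.5), and in all 12 BM classes tested it was called higher. In plasmacytoid DC-like cells that call rested on 6 UMIs against 4, 3 of them in 1 cell, with an interval of 0.589 to 12.0.

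**Figure D3:**
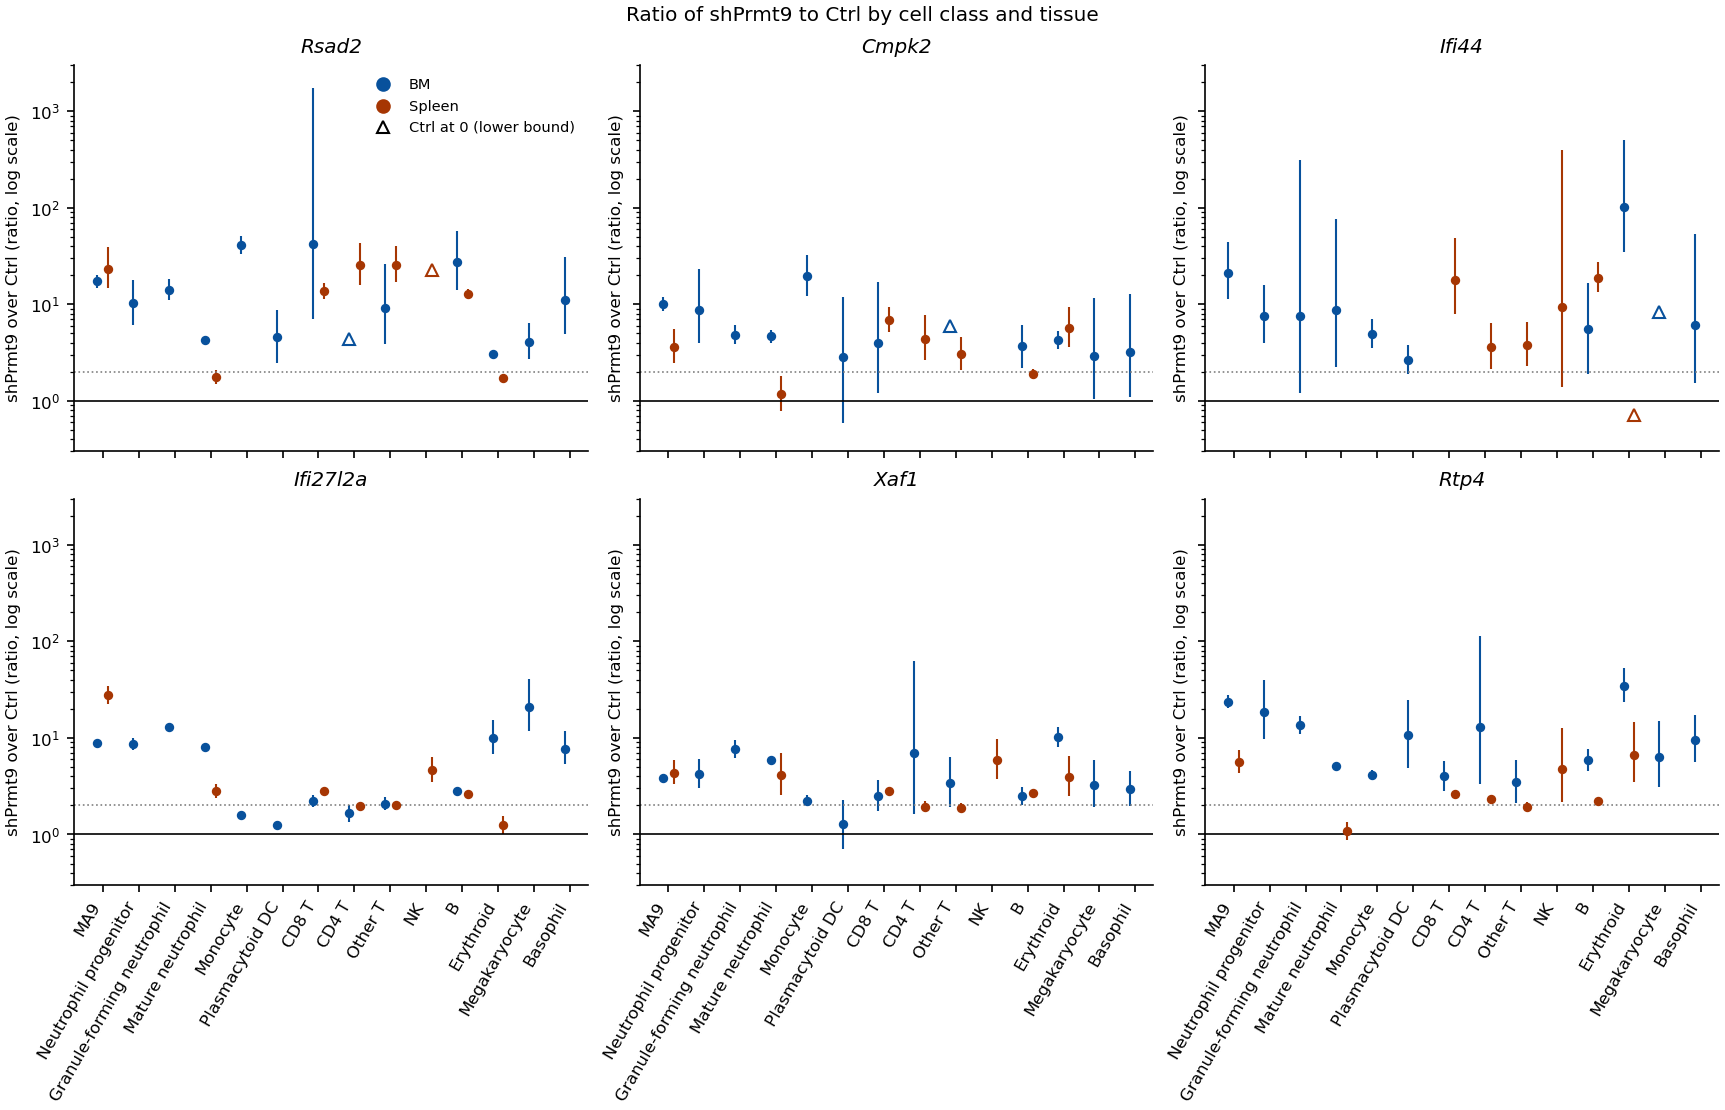
Ratio of shPrmt9 to Ctrl (y axis, log scale) by cell class (x axis) for each gene, bone marrow in blue and spleen in brown, with exact binomial 95% intervals and a dotted line at 2. Open triangles are lower bounds where the control had 0 UMIs. The splenic points of Rsad2, Cmpk2, Ifi27l2a and Rtp4 in mature neutrophil-like cells lie below the bone marrow points.

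Rsad2 and Cmpk2 were often counted in the same cells. Of BM-shPrmt9 erythroid-like cells with a Cmpk2 UMI, 327 of 347 also had an Rsad2 UMI, and of those with Rsad2, 37.5% had Cmpk2. In mature neutrophil-like cells of that library 901 of 1037 cells with Cmpk2 had Rsad2. In the control the counts were 55 of 73 erythroid-like and 83 of 147 mature neutrophil-like cells of BM-Ctrl. Deep cells show more of both genes, so these overlaps describe the cells and are not a measure of joint control. Across 48 pools of class and library the log2 levels of the pair correlated at r = 0.88 as a description, since pools of a library share its depth and composition. Xaf1 and Rtp4 had the highest value of the 15 pairs of members, 0.90, and Rsad2 and Ifi27l2a the lowest, 0.25.

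Ifi44 had a pattern of its own. Of the bone marrow classes compared, it was highest in plasmacytoid DC-like cells, the specialised producers of type I interferon. They held 65.5 CPM in BM-Ctrl and 176 in BM-shPrmt9, a ratio of 2.69 (1.90–3.77). A UMI of Ifi44 was found in 45 of 117 of those cells in BM-Ctrl and in 18 of 24 in BM-shPrmt9. Erythroid-like cells, with 3 UMIs in BM-Ctrl, had 558 in BM-shPrmt9, or 0.808 against 83.0 CPM, a ratio of 103 (34.9–499). That ratio was 59.5 with TMM factors and 75.7 when pools were scaled to UMIs other than haemoglobin. In spleen, erythroid-like cells held 0 UMIs in Ctrl and 22 in shPrmt9, and the lower bound of 0.714 sets no direction. The 558 UMIs came from 145 of 1085 cells, and the 10% of cells with most of it held 93.4% of them. Megakaryocyte-like cells, with 0 UMIs in BM-Ctrl and 63 in BM-shPrmt9, were at least 8.27-fold higher.

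In lymphoid classes Ifi44 was low in the control and higher in shPrmt9 spleen, with 0.572 and 10.2 CPM in CD8 T-like cells and 0.755 and 14.3 in B-like cells. The ratios were 17.8 (7.98–49.3) and 19.0 (13.6–27.3). In Spleen-Ctrl, CD4 T-like cells held 5.53 CPM of Ifi44 and other T-like cells 4.53, with overlapping intervals. Splenic CD4 T-like cells stood at 19.9 CPM in shPrmt9, a ratio of 3.60 (2.16–6.39). Neutrophil-like cells had very little of it. Mature neutrophil-like cells had 2 UMIs in BM-Ctrl and 34 in BM-shPrmt9, a ratio of 8.86 (2.27–76.1), and the upper estimate of free RNA there came to 106% of what was counted in BM-shPrmt9. MA9-like cells had 10 UMIs in BM-Ctrl and 218 in BM-shPrmt9, 21.1-fold higher (11.3–44.7), with free RNA at up to 17.7% of the latter. In splenic MA9-like cells 0 and 4 UMIs were too few to compare.

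Ifi27l2a was counted in many classes of the control. In BM-Ctrl it was 1961 CPM in plasmacytoid DC-like cells, 1519 in monocyte-like, 1388 in CD4 T-like and 1380.4 in B-like cells, against 22.9 in MA9-like and 7.55 in erythroid-like cells. Of these 4 classes with high control levels, 3 had ratios under 2, at 1.26 (1.17–1.37) in plasmacytoid DC-like, 1.58 (1.53–1.62) in monocyte-like and 1.65 (1.35–2.03) in CD4 T-like cells, while B-like cells were called at 2.80 (2.71–2.90). MA9-like cells went from 22.9 to 203 CPM in BM, 8.84-fold higher (8.47–9.23), and from 51.4 to 1422 CPM in spleen, 27.7-fold higher (22.6–34.3), and the splenic level in shPrmt9 was above that of the marrow. Free RNA could give up to 20.8% of the counts in BM-shPrmt9 and 6.36% in Spleen-shPrmt9, and 38.9% and 57.0% in the controls. The same gene was 13.02-fold (12.0–14.1) higher in granule-forming neutrophil-like cells, from 96.0 to 1250.3 CPM, and 8.04-fold (7.82–8.27) in mature neutrophil-like cells, from 395 to 3174 CPM. Megakaryocyte-like cells had the highest ratio in bone marrow, 21.0 (11.9–40.8), on 12 control UMIs, for which free RNA could account in full.

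Among classes with at least 20 cells, erythroid-like cells had the least Ifi27l2a in BM-shPrmt9 and Spleen-shPrmt9. In BM-Ctrl they held 7.55 CPM on 28 UMIs, and NK-like cells 14.5 CPM on 7 UMIs. Free RNA could account for up to 177% of that erythroid-like level. In erythroid-like cells of BM-shPrmt9, Spleen-Ctrl and Spleen-shPrmt9 the estimates were 83.7, 109 and 92.5%, so no expression by erythroid-like cells is read from the counts. NK-like cells of spleen, with 42.4 and 199 CPM, had estimates of 130% and 71.9%. B-like cells, in contrast, went from 1380.4 to 3871 CPM in BM and from 1308 to 3456 in spleen, the latter a ratio of 2.64 (2.62–2.67), with at most 8.39% free RNA.

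Xaf1, whose product frees caspases from XIAP, had the lowest ratio of the 6 genes in MA9-like, neutrophil progenitor-like, B-like and basophil-like cells of bone marrow. Only in MA9-like cells did its interval lie below those of all the other genes. In MA9-like cells the ratio was 3.89 (3.59–4.22) in BM and 4.37 (3.32–5.85) in spleen, on 7.26 and 28.3 CPM in the marrow and 30.1 and 131 CPM in the spleen. These intervals overlap, as did those of Rsad2, while those of Cmpk2, Ifi27l2a and Rtp4 in MA9-like cells did not. Mature neutrophil-like cells were 5.89-fold (5.31–6.56) higher in BM, from 28.7 to 169 CPM, and 4.13-fold (2.57–7.06) in spleen, from 69.2 to 286 CPM, with overlapping intervals. The highest ratio of Xaf1 was in BM erythroid-like cells, 10.1 (7.99–13.1), from 19.1 to 194 CPM, or 5.88 with TMM factors. Splenic CD4 T-like and other T-like cells, at 1.94 (1.71–2.20) and 1.90 (1.71–2.12), lay just under the 2-fold line, and plasmacytoid DC-like cells had an interval of 0.704 to 2.26 that includes 1.

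Rtp4, the receptor-trafficking protein gene, was highest in mature neutrophil-like cells in BM-Ctrl, BM-shPrmt9 and Spleen-Ctrl, at 98.1, 497 and 408 CPM. This ranking is among classes with at least 20 cells. In Spleen-shPrmt9 mature neutrophil-like cells held 442 CPM (405–482) and monocyte-like cells 427 (389–467), and these intervals overlap. Of the mature neutrophil-like levels that of BM-Ctrl was the lowest. The ratio in these cells was 5.07 (4.79–5.37) in BM against 1.08 (0.878–1.35) in spleen. In MA9-like cells Rtp4 had the highest ratio of the 6 genes in bone marrow, 23.7 (20.3–27.9), from 1.62 to 38.4 CPM. That interval lies within the one of Ifi44 there, 11.3 to 44.7. In spleen Rtp4 stood 5.62-fold (4.29–7.50) higher in these cells, from 30.6 to 172 CPM. Erythroid-like cells went from 27 to 1692 UMIs in BM, a ratio of 34.6 (23.7–52.6), and from 9 to 620 UMIs in spleen, 6.71 (3.51–14.7). The splenic T-like classes held 96.4 to 136 CPM in the control and 251 to 277 CPM in shPrmt9, ratios of 1.95 (1.77–2.15) to 2.60 (2.43–2.79).

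Between tissues, 33 gene and class pairs had a ratio in both, all of them above 1 in both. The difference of ratios was not tested. How many of all genes have intervals that do not overlap between tissues was not counted. Non-overlap, here and in the paragraphs above, is therefore not read as a trait of these genes. In mature neutrophil-like cells Rsad2, Cmpk2, Ifi27l2a and Rtp4 all had the higher ratio in BM, with intervals that did not overlap. There Spleen-Ctrl stood above BM-Ctrl for each gene with counts in both, and its 62 cells had a median of 3334 UMIs against 9812 in the 124 cells of Spleen-shPrmt9. In MA9-like cells Cmpk2 and Rtp4 had the higher ratio in BM and Ifi27l2a in spleen.

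The share of cells with a transcript is read after thinning each cell to 1000 UMIs, which leaves shallower cells out (0 to 104 in the classes compared). After thinning, 3.27% of MA9-like cells in BM-Ctrl and 27.1% in BM-shPrmt9 had a UMI of any of the 6 genes, and 13.2% and 78.6% in spleen. Unthinned, the shares were 57.3, 97.5, 84.9 and 99.6% in that order. In granule-forming neutrophil-like cells of bone marrow the thinned share was 12.5% in Ctrl and 70.8% in shPrmt9, and in mature neutrophil-like cells 29.1% and 87.7%. As the plot of shares shows, the share was higher in shPrmt9 in every class compared except plasmacytoid DC-like cells, at 78.6% and 75.0%.

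**Figure D4:**
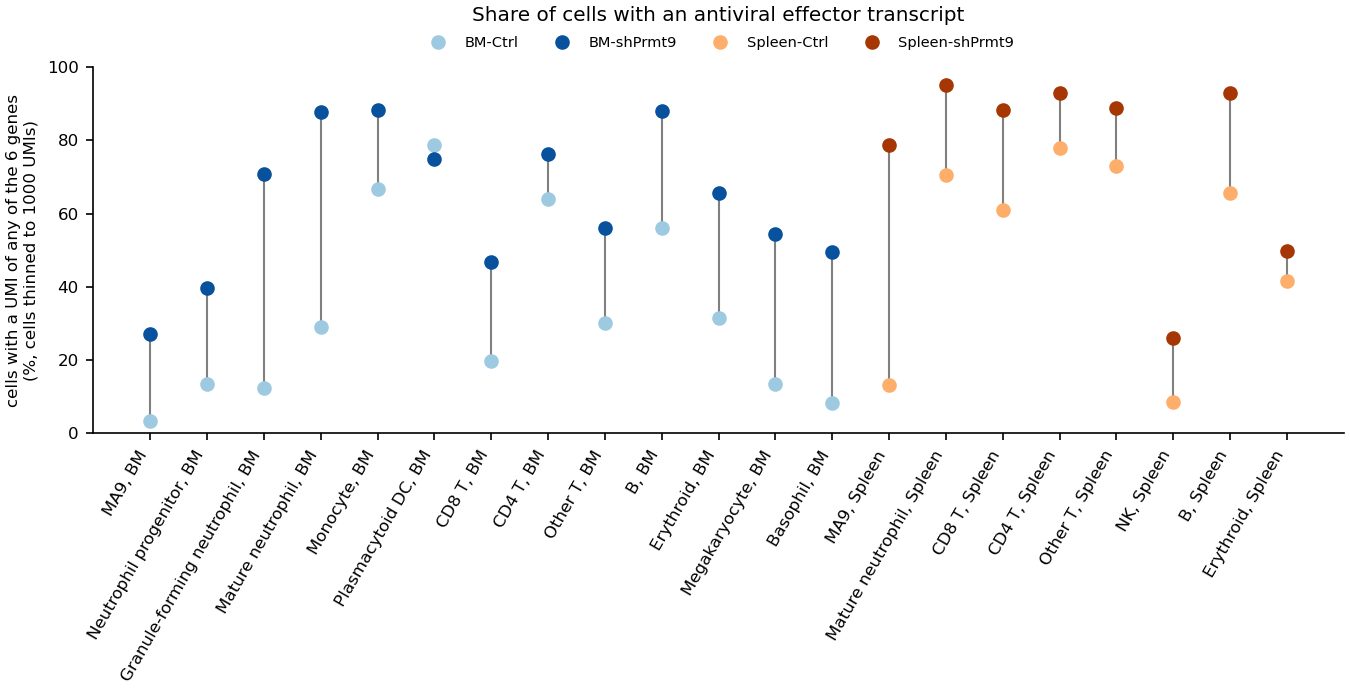
Share of cells with at least 1 UMI of any of the 6 genes after thinning to 1000 UMIs (y axis, %) in Ctrl (pale) and shPrmt9 (dark) by cell class and tissue (x axis). The gap is widest in splenic MA9-like cells, from 13.2 to 78.6%, and the order is reversed in plasmacytoid DC-like cells of bone marrow.

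Of single genes, Rsad2 was found in 27.7% (24.1–31.5) of thinned erythroid-like cells in BM-Ctrl and 51.8% (48.6–55.0) in BM-shPrmt9, but in spleen in 40.3% (32.3–48.6) and 44.0% (41.4–46.6), whose intervals overlap. In mature neutrophil-like cells the share with Rsad2 was 7.05 and 29.5% in BM and 36.1 and 64.2% in spleen. Among classes with at least 20 cells, NK-like cells had the least Rsad2 in Spleen-Ctrl. In Spleen-shPrmt9 their 55.6 CPM lay within the interval of plasma cell-like cells, 51.5 to 74.2 CPM, and these 2 classes were not ordered. Of NK-like cells, 0 of 81 had an Rsad2 UMI in Spleen-Ctrl, which allows up to 4.45% of cells with a UMI and sets no limit on cells expressing the gene. In Spleen-shPrmt9 it was counted in 5.70% of thinned NK-like cells, and the medians of the class in Spleen-Ctrl and Spleen-shPrmt9 were 12560 and 8494 UMIs. Free RNA could give 40.9% of the Rsad2 counted in the latter. Cells with UMIs of all 6 genes were at most 10.5% of a class with at least 20 cells, unthinned, in megakaryocyte-like cells of BM-shPrmt9. In that library they made up 5.97% of monocyte-like cells and 4.17% of plasmacytoid DC-like cells, and in Spleen-shPrmt9 10.2% of the 88 monocyte-like and 3.74% of B-like cells.

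The effectors were set beside a wider list of genes that interferon induces. Of 62 other interferon-stimulated genes, 41 were at least 2-fold higher and 0 lower in BM MA9-like cells, where the shares of all genes were 14.3% and 8.11%, with a median log2 ratio of 1.30 against 3.72 for the effectors and 0.03 for all genes tested. The listed genes with most UMIs there were Ifitm3, a membrane protein that blocks viral entry, at 454 and 1458 CPM, Ly6e at 507 and 874, Bst2 (tetherin) at 119 and 313 and Sp100 at 141 and 114. In splenic MA9-like cells 37 of 61 tested were higher and 1 lower, beside 12.2% and 16.5% of all genes. BM erythroid-like cells had 59 of 60 higher, beside 45.0% of all genes. Splenic mature neutrophil-like cells had 15 of 61 higher and 1 lower, the fewest higher of all comparisons, beside 8.63% and 20.3% of all genes.

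Genes of interferon signalling were listed by role. Of the 9 ligands, none had enough UMIs for a ratio in MA9-like cells of either tissue. Among the 6 receptor genes in BM MA9-like cells, Ifnlr1 was 7.51-fold (4.10–15.1) higher on 12 control UMIs, Ifngr1 was lower at a ratio of 0.487 (0.477–0.497), and the type I receptor chains Ifnar1 and Ifnar2 stood at 0.988 (0.914–1.07) and 1.16 (1.14–1.19). Among the transcription factors, Irf7, the amplifier of type I interferon production, was called higher at a ratio of 4.72 (4.39–5.07). Of the 3 feedback inhibitors, Usp18, which closes the type I receptor to further signalling, was 6.85-fold (5.89–7.99) and Socs1 2.41-fold (2.17–2.67) higher. In splenic MA9-like cells Irf7 was 11.2-fold (8.87–14.5) and Usp18 9.33-fold (5.69–16.5) higher, and 0 of 5 receptors were called. Ifng, the type II ligand, had enough UMIs in CD8 T-like cells, with 5 in BM-Ctrl and 210 in BM-shPrmt9, or 55.8-fold higher (23.5–174), and with 117 in Spleen-Ctrl and 57 in Spleen-shPrmt9, a ratio of 0.364 (0.260–0.503). In some other classes 1 of the 9 ligands was tested as well, and the directions differed from those in CD8 T-like cells. Its log2 ratio was -1.88 in BM other T-like cells. In spleen it was 1.21 in CD4 T-like, 2.01 in other T-like, 1.40 in NK-like and 1.51 in B-like cells.

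The genes most like each effector were found by correlating log2 levels over the 48 pools with each of 13112 other genes, as a description. Isg15 (r = 0.87), Isg20 (0.86) and Gm13822 (0.79) came first for Rsad2, and Oasl2 (0.83), Oas2 (0.83) and Gm13822 (0.82) for Cmpk2. Ifi44 was closest to Phf11d (0.76), Bst2 (0.69) and Stat2 (0.69), and Ifi27l2a to Slfn5 (0.85), Slfn8 (0.85) and Trim30d (0.84). Xaf1 lay closest to Irf7, Usp18 and Herc6, with r of 0.88, 0.88 and 0.87, and Rtp4 to Oas3, Ifit1 and Ifit3, with 0.90, 0.90 and 0.89. Of these genes, all but Gm13822 and Trim30d were on the list of interferon-stimulated genes.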

How the data were processed

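Single cells of bone marrow and spleen were profiled with 10x Genomics 3′ chemistry in 4 libraries. Each deposited matrix holds unnormalised UMI counts, which Cell Ranger gave the authors (6.0.2 per the file headers, 6.1.1 in the submitters' processing notes) on mm10. The authors' cell labels were not used here, and classes were rebuilt. Barcodes under 200 genes or over 20% mitochondrial UMIs were left out. Scrublet (scanpy 1.11.5) called 125, 0, 1 and 183 doublets, too few in the middle pair, so the 744, 999, 640 and 520 cells with the highest scores, up to an expected 0.8% per 1000 cells, were left out. A cell took the class with the highest marker score if at least 2 of its markers were detected and the next class was at least 0.05 lower. MA9-like cells had a Hoxa9 or Hoxa10 UMI, at least 2 MA9 genes, at least 100 CPM of them and no lymphoid, erythroid, megakaryocyte, basophil, DC or macrophage class, and 309 to 543 cells in bone marrow and 144 to 665 in spleen stayed unassigned. Member UMIs were summed per class and library, and classes with at least 20 cells in both libraries of a tissue were compared.

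The immunoglobulin list was left out of the free RNA estimate of plasmacytoid DC-like cells, which carry such transcripts themselves, and of B-like and plasma cell-like cells. The neutrophil list was left out for MA9-like, all neutrophil-like, monocyte-like, macrophage-like and basophil-like cells, and the globin list for erythroid-like and megakaryocyte-like cells. In MA9-like and neutrophil-like cells the estimate thus rests on globins and immunoglobulins alone. The ratio code was tested on Poisson counts simulated for MA9-like cells, with changes put only into genes well counted in the control. It recovered 100% of genes changed 3-fold or 4-fold in both tissues. Small classes and genes with few control UMIs were not simulated, so this checks the code and not the calls made there. Named genes were the 8 members, the 3 genes most like each, and up to 4 list genes with most UMIs in a comparison. The members and lists were chosen with earlier results of these data known. Alternatives were classes from 33 Leiden clusters (2951 genes, scikit-learn 1.9.0, igraph 0.11.9), doublets kept, TMM factors (edgeR 4.0.16), each cell's own CPM averaged, omission of the top cell, all barcodes, a stricter gate, 1.5-fold, 1 UMI, thinning to 2000 UMIs or none, and, added after seeing the data, scaling without haemoglobin and removal of free RNA. The values of 1 listed signalling gene and a search for 1 other promoter motif are not reported here.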

Additional observations from a re-analysis of the deposited data

Results flagged for a closer look

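Some classes had at least 20 cells in shPrmt9 and fewer in Ctrl and so entered no comparison, and in them the counting interval of a gene's level in shPrmt9 lay above that in the control library. With so few control cells these are values of single libraries. In splenic monocyte-like cells, 13 in Ctrl and 88 in shPrmt9, Rsad2 was 774 CPM in the control and 2338 in shPrmt9, the highest level of this gene in any class and library with at least 20 cells. Of the 94 control UMIs of Rsad2, 92 came from 1 of the 13 cells, so the control level is that of a single cell. Ifi27l2a stood at 914 and 3065 CPM, Xaf1 at 156 and 309, and Rtp4 at 107 and 427 CPM in the same cells.

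Splenic granule-forming neutrophil-like cells, 5 in Ctrl and 113 in shPrmt9, held Rsad2 at 29.5 and 257 CPM, Cmpk2 at 0 and 56.8, Ifi27l2a at 463 and 1664, Xaf1 at 9.85 and 149, and Rtp4 at 59.1 and 216 CPM. Splenic plasma cell-like cells, 13 and 80, held Rsad2 at 0 and 62.1 CPM, Ifi27l2a at 431 and 3535, Xaf1 at 3.36 and 77.4, and Rtp4 at 6.73 and 52.8 CPM. Free RNA could give up to 47.6% of Rsad2 and 5.26% of Ifi27l2a counted in plasma cell-like cells of Spleen-shPrmt9. In macrophage-like cells of bone marrow, 19 and 20, Rsad2 was 12.4 CPM in Ctrl and 363 in shPrmt9. It was the only 1 of the 6 genes there whose interval lay above that of the control, and Ifi27l2a was 1436 CPM in Ctrl and 1145 in shPrmt9.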

How the results depend on the processing

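With all classes compared, the other settings gave 64 to 72 pairs at least 2-fold higher in bone marrow (1.5-fold for the highest) and 32 to 42 in spleen, against 70 and 34. Cluster classes gave 50 of 53 pairs in 10 bone marrow classes and 29 of 40 in 7 splenic ones, and the stricter gate 55 of 56 in 10 bone marrow classes. The shares of all genes called under these other settings were not counted. The counts therefore show how the calls of these genes moved and not how they stood against all genes. TMM factors ended the call of Rsad2 in BM erythroid-like cells. Counts moved by over 1.5 times in BM CD4 T-like cells, to 1 of 2 tested without the cell with most UMIs, and in splenic erythroid-like cells, to 5 of 6 with TMM factors and 5 with the mean of each cell's CPM. With genes of at least 1 UMI, 1 gene of splenic MA9-like cells, Ifi44, counted as lower, on 0 control UMIs against the floor of 3. With free RNA taken off shPrmt9, 1 gene counted as lower in BM mature neutrophil-like cells, Ifi44 at a ratio of 0, and 1 in splenic erythroid-like cells, Ifi27l2a at a ratio of 0.0937. Called ratios that reversed were Cmpk2 in plasmacytoid DC-like cells, 0.896 without the cell with most UMIs, and Ifi44 in basophil-like cells, 0.807 with cluster classes, and the cause was not tested. Of the 4 promoters the motif with 1 base between its repeats was in 2, against 1 for the ISRE core. No paired analysis was possible because each group had 1 library. Few UMIs limit Ifi44, which had at most 6 in any T-like class of the marrow and at most 4 in splenic MA9-like and mature neutrophil-like cells of a library.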

Other observations

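Conventional DC-like cells of bone marrow, outside the compared classes, went against the general direction for Ifi44. In these cells, 42 in BM-Ctrl and 18 in BM-shPrmt9, Ifi44 was counted 35 times in the control (45.5 CPM) and once in shPrmt9 (1.97 CPM), and Ifi27l2a was 1438 CPM in the control and 635 in shPrmt9. Of the other genes, Xaf1 was counted at 63.7 and 72.7 CPM and Rsad2 at 29.9 and 35.4 CPM, control first. Cmpk2 went up from 7.80 to 19.7 CPM and Rtp4 from 31.2 to 51.1 CPM. The intervals of both libraries overlapped for Xaf1, Rsad2, Cmpk2 and Rtp4, and did not overlap for Ifi44 and Ifi27l2a. With each cell's own CPM averaged, Ifi27l2a fell less, from 1739 to 1333 CPM, and Ifi44 fell from 60.9 to 7.04 CPM. In spleen, with 13 and 10 such cells, Ifi44 was 10.2 CPM in Ctrl and 18.0 in shPrmt9, on 2 and 3 UMIs, and Ifi27l2a 730 and 5723 CPM. The class fell short of 20 cells in BM-shPrmt9 and in both spleen libraries. Plasmacytoid DC-like cells, the compared class with most Ifi44, numbered 117 and 24 in the BM libraries.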
